A study of Mus musculus with 12 samples.

Results

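Expression of the glucose transporter gene Slc2a1 and of 9 genes for the enzymes that turn glucose into lactate was followed in CT26 cells, a mouse colon carcinoma line, by RNA sequencing. The genes were taken by symbol as Slc2a1, Hk2, Pfkl, Aldoa, Tpi1, Gapdh, Pgk1, Eno1, Pkm and Ldha, which made 10 of the 12584 genes in the deposited table, and all 10 passed the filter on low values. Cells were treated for 24 h with NP-D@MP, NP-D@M, NP@M or the saline buffer PBS, with 3 libraries per treatment. The labels do not spell these names out. The series title speaks of a nanodrug against cyclin-dependent kinases that is coated with engineered cancer cell membrane and combined with antibody therapy against PD-L1. No label says whether the libraries of a treatment came from separate dishes, so p-values reflect only the variation among these libraries, possibly of technical origin. The extraction text mentions retinas, which conflicts with the cell line named in the other labels.

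Glycolysis breaks glucose down to pyruvate in the cytosol. Slc2a1 (GLUT1) carries glucose across the plasma membrane and Hk2 (hexokinase) phosphorylates it, so that it stays in the cell. Pfkl is the liver-type subunit of phosphofructokinase, the committed step. Aldoa (aldolase) splits the sugar and Tpi1 (triosephosphate isomerase) interconverts the triose phosphates. Gapdh oxidises glyceraldehyde phosphate, and Pgk1 (phosphoglycerate kinase), Eno1 (enolase) and Pkm (pyruvate kinase) carry the pathway on to pyruvate, with ATP made by Pgk1 and Pkm. Ldha (lactate dehydrogenase A) reduces pyruvate to lactate and regenerates NAD+. Many tumours run this pathway at a high rate even with oxygen present, and the hypoxia-inducible factor HIF-1 and Myc are known activators of many of these genes.

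HIF-1 binds the core motif ACGTG or GCGTG, and Myc binds the E-box CACGTG. The promoters of Slc2a1, Hk2, Pgk1 and Ldha were chosen for print because they hold ACGTG and belong to genes that moved differently in FPKM: Slc2a1 and Hk2 fell in the treatments with D in their name, while Pgk1 and Ldha rose (directions that turned for Pgk1 and Ldha under other scalings, below). Each sequence runs 5′ to 3′ along the gene's own strand over 300 bases around the RefSeq start, most of them upstream (RefSeq, GRCm38.p6), with ACGTG and its reverse complement CACGT in capitals.
Slc2a1 (chr4:119108495-119108794, plus strand): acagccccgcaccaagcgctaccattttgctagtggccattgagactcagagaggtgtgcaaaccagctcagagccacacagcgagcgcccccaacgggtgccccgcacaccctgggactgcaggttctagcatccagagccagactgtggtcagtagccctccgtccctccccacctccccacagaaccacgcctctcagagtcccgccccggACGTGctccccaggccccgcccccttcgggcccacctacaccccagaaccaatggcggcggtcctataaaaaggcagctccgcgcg
Hk2 (chr6:82774405-82774704, minus strand): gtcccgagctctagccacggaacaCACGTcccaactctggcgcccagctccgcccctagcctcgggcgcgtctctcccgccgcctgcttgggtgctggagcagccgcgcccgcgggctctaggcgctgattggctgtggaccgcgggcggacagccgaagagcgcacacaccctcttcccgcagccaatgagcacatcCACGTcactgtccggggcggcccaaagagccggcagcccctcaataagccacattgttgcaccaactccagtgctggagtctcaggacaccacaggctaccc
Pgk1 (chrX:106186850-106187149, plus strand): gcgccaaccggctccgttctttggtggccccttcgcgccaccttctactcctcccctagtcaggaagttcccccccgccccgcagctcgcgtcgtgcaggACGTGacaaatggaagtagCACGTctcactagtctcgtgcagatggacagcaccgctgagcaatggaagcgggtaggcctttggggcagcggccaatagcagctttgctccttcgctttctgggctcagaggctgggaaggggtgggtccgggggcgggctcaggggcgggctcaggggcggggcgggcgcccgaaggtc
Ldha (chr7:46845554-46845853, plus strand): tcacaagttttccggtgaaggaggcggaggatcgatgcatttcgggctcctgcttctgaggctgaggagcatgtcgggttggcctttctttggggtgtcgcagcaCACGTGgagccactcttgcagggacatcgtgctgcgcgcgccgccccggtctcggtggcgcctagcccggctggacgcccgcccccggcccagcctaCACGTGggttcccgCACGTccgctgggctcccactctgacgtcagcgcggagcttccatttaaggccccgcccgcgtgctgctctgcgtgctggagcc
The 10 genes had 16 such windows of 300 bases. On either strand, ACGTG was found in 8 windows of 7 genes, while 19.6% of all 32851 mouse windows of the same length held it. GCGTG was found in 8 windows of 5 genes, against 32.4% of all windows. The E-box CACGTG, which holds ACGTG on both strands, was found in 1 gene, Ldha, where the window above has 2 copies, and in 7.15% of all windows. That the printed windows share ACGTG follows from this choice. A match is a description of the sequence and not a site of binding.

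The table held 12.8 to 15.7 M reads (mega-reads) per library, but the divisor behind the authors' FPKM (fragments per kilobase and mega-fragments) was 7.13 to 8.40 M for NP-D@MP and NP-D@M libraries and 28.2 to 31.1 M for NP@M and PBS libraries. Dividing by the summed reads instead, called the table-read scale below, gave a median log2 change of all genes of -1.46 between NP-D@M and NP@M, against -0.19 in FPKM as deposited. Results are given on both scales and after quantile normalization, which forces 1 distribution on all libraries. Mitochondrial genes held 7.41 to 14.4% of the reads with D and 3.30 to 4.2% without it, and ribosomal protein genes 14.1 to 16.3% with D and 5.87 to 6.68% without it. Their part in the results on glycolysis was not tested. By the root-mean-square log2 difference over all tested genes, the NP-D@M libraries N7, N8 and N9 lay 0.522 to 0.539 from each other, with N7 and N8 no closer to each other than to N9, while the NP-D@MP libraries lay 0.338 to 0.357 from each other. N9 lay 0.314 to 0.340 from the NP-D@MP libraries, and N7 and N8 lay 0.505 to 0.568 from them. Of 9 epithelial markers, 2 had a row (Krt18 and Krt20, summed FPKM 73.0 to 91.1 with D and 15.1 to 18.7 without it), and they went opposite ways in FPKM. Krt20 averaged 80.4 FPKM in NP-D@MP, 78.0 in NP-D@M, 8.67 in NP@M and 9.27 in PBS cells, and Krt18 4.19 FPKM in NP-D@MP, 4.46 in NP-D@M, 6.89 in NP@M and 8.16 in PBS cells. Of 10 leukocyte markers, 3 had a row, with a summed FPKM of 9.31 to 21.3 with D and 2.57 to 3.25 without it. Their defining marker Ptprc was at 0 in every NP@M and PBS library and reached at most 0.0677 FPKM with D, whereas Cd68 averaged 14.9 FPKM in NP-D@MP, 12.5 in NP-D@M, 2.38 in NP@M and 2.11 in PBS cells, and Lyz2 2.19 FPKM in NP-D@MP, 2.44 in NP-D@M, 0.637 in NP@M and 0.567 in PBS cells. Of 10 mesenchymal markers, 7 had a row, and their summed FPKM was 1217 to 1561 with D and 469 to 540 without it. Vim made up most of this sum, at 1479 FPKM in NP-D@MP, 1316 in NP-D@M, 444 in NP@M and 413 in PBS cells. On the table-read scale Vim averaged 790 in NP-D@MP, 735 in NP-D@M, 886 in NP@M and 817 in PBS cells. Col1a2 averaged 11.3 FPKM in NP-D@MP, 9.25 in NP-D@M, 54.3 in NP@M and 58.6 in PBS cells. Col1a1, Col3a1, Pdgfra and Pdgfrb were also lower on average with D, while Dcn, at most 0.490 FPKM, was higher. The part of these markers in the results was not tested. The only retinal marker with a row, Sag, reached at most 0.589 FPKM. In bulk RNA, fewer cells of a type and less RNA per cell cannot be told apart.

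In NP-D@MP cells the genes of the lower pathway led by FPKM. FPKM divides by the deposited gene length, 2244 bases for Pgk1 and 6675 for Pfkl, so the order of genes depends on it as well. Whether these lengths match the transcripts present was not tested. Pkm averaged 3173 ± 134 FPKM (SD, n = 3 here and for every group mean below), followed by Pgk1 at 2835 ± 30.1, Tpi1 at 1339 ± 28.9, Eno1 at 1246 ± 34.5 and Aldoa at 1199 ± 54.6. Ldha came next at 750 ± 36.9 FPKM and Pfkl at 71.8 ± 5.75, while Hk2 at 2.40 ± 0.484 and Slc2a1 at 1.77 ± 0.217 were lowest. In PBS cells the order was Pgk1 at 463 ± 22.8 FPKM, Ldha at 377 ± 16.4, Pkm at 298 ± 26.0, Tpi1 at 213 ± 18.5, Eno1 at 196 ± 21.7 and Aldoa at 152 ± 10.7. Slc2a1 at 21.9 ± 0.547 FPKM, Pfkl at 14.5 ± 0.394 and Hk2 at 9.90 ± 0.508 followed, and the Gapdh row was last at 4.52 ± 3.61. In PBS cells that row held only 0.801 to 2.69% of the reads of Gapdh and the rows that share sequence with it (below). How far its place there depended on the assignment of reads was not tested. Ldha thus stood below Pkm in every library of both D treatments and above Pkm in every NP@M and PBS library. The ranges of Tpi1 and Eno1 overlapped in PBS, NP@M and NP-D@M cells, and those of Eno1 and Aldoa in NP-D@MP and NP-D@M cells. Within libraries, Eno1 nevertheless stood above Aldoa in every library of both D treatments, and Tpi1 above Eno1 in every PBS library. In NP@M and NP-D@M cells the order of Tpi1 and Eno1 was not steady, with Eno1 above Tpi1 in N6 and N8 only. Slc2a1 and Hk2 also overlapped in NP-D@M cells, where Hk2 was above Slc2a1 in N9 only. Gapdh could not be placed with D, since its libraries ran from 5.24 to 609 FPKM.

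**Figure D1:**
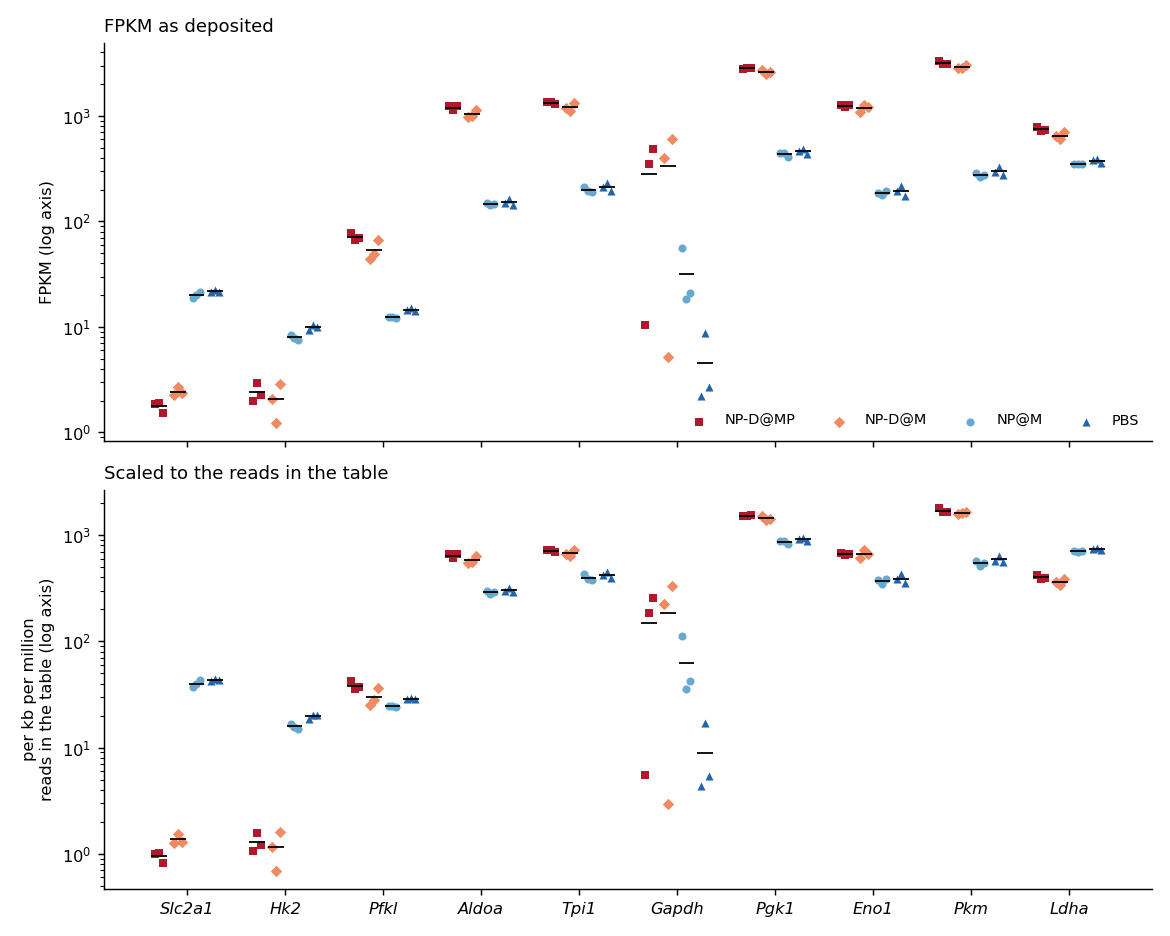
Level of each gene in every library, as deposited FPKM (upper panel) and on the table-read scale (lower panel), both on log axes; each symbol is a library and each bar the mean of 3. Slc2a1 and Hk2 lie lower in both D treatments (NP-D@MP and NP-D@M) than in NP@M and PBS on both scales, while Ldha lies higher with D in the upper panel and lower in the lower one; Gapdh scatters within every treatment.

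The component labelled D was addressed by setting NP-D@M against NP@M. Of the entry genes on the list, Slc2a1 was 8.22-fold and Hk2 3.84-fold lower in NP-D@M cells. Hk1, a hexokinase gene outside the list, was higher in FPKM but lower on the table-read scale (below). From phosphofructokinase to pyruvate kinase, Pfkl, Aldoa, Tpi1, Pgk1, Eno1 and Pkm rose by 4.34- to 10.6-fold in FPKM. On the table-read scale Pfkl was no longer called. After quantile normalization Tpi1, Pgk1 and Eno1 were called lower, while Aldoa (log2 change -0.085) had no change that passed the test. Ldha rose 1.84-fold in FPKM but fell 1.94-fold on the table-read scale, so its direction depended on the scaling.

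Counted over the list, 7 of the 10 genes were called higher and 2 lower in NP-D@M cells (limma, Benjamini-Hochberg adjusted p under 0.05 over 10101 genes), and Gapdh was not called. Over all genes 41.8% were called higher and 47.7% lower, 89.5% in all, so a call by itself was the common outcome. The median log2 change was 2.30 over the 10 genes and -0.19 over all genes as deposited, and 0.50 over the 10 genes and -1.46 over all on the table-read scale. After quantile normalization it was -0.33 over the 10 genes and -0.10 over all. On the table-read scale, 5 of the 10 genes were called higher and 3 lower (17.5% and 70.5% of all genes), and after quantile normalization 2 were higher and 6 lower (37.7% and 41.8% of all genes). Without N9 the same 9 genes were called in the same directions, with log2 changes of 1.84 for Pfkl, 3.36 for Pkm and 0.82 for Ldha.

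Slc2a1 (ENSMUSG00000028645, chr4:119108711-119137983, plus strand; coordinates here are for GRCm38) had 2.24, 2.71 and 2.36 FPKM in NP-D@M cells, against 18.7, 20.1 and 21.3 FPKM in NP@M cells. Every NP-D@M library lay below every NP@M library by a wide margin. Its log2 change was -2.61 ± 0.0935 (SE; limma adjusted p = 2.87e-10), lower than that of all but 1.55% of the tested genes. The NP-D@M values rest on 66 to 69 reads per library, against 2012 to 2323 in NP@M. The fall was 29.3-fold on the table-read scale, with a log2 change of -4.12. Slc2a1 ranked between 5637 and 6901 among the genes of each library with D and between 1229 and 1422 in each library without it, an order within the library that needs no scaling between libraries.

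Hk2 (ENSMUSG00000000628, chr6:82725025-82774454, minus strand), the inducible hexokinase, had 2.08, 1.22 and 2.90 FPKM in NP-D@M cells, against 8.39, 7.93 and 7.50 FPKM in NP@M cells. The groups did not overlap, although N8 was much lower than the other NP-D@M libraries. The log2 change was -1.58 ± 0.175 (limma adjusted p = 4.14e-06), and -2.99 on the table-read scale. Of the 2 genes, Slc2a1 fell further: the ratio of Hk2 to Slc2a1 within a library was 0.868 ± 0.391 in NP-D@M cells and 0.398 ± 0.0485 in NP@M cells, with all 3 NP-D@M values above all 3 NP@M values. Hk1, the other hexokinase gene tested, stood at 8.54 ± 2.48 FPKM in NP-D@M cells and 6.22 ± 0.0630 FPKM in NP@M cells (log2 change 0.37, limma adjusted p = 0.0342, but -1.24 on the table-read scale).

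Pfkl (ENSMUSG00000020277, chr10:77986947-78010083, minus strand) had 44.5, 49.1 and 66.7 FPKM in NP-D@M cells, against 12.4, 12.5 and 12 FPKM in NP@M cells. The NP@M libraries were nearly alike, while N9 stood above the other NP-D@M libraries. The log2 change was 2.01 ± 0.131 (limma adjusted p = 4.01e-08), but 0.25 (adjusted p = 0.0690) on the table-read scale. Against Hk2, the preceding gene of the list, Pfkl held 28.2 ± 10.4 times its FPKM in NP-D@M cells and 1.55 ± 0.0652 times in NP@M cells, and this ratio does not depend on the library size.

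Aldoa, Tpi1, Pgk1 and Eno1 changed by nearly the same amount in NP-D@M cells, with log2 changes between 2.58 and 2.83 as deposited. Aldoa (chr7:126795234-126800751) had 979, 998 and 1148 FPKM in NP-D@M cells, against 148, 142 and 146 FPKM in NP@M cells. Pgk1 (chrX:106187100-106203699) had 2703, 2479 and 2595 FPKM in NP-D@M cells, against 443, 445 and 408 FPKM in NP@M cells. None of the 4 genes had overlapping groups, and their limma adjusted p-values lay between 1.25e-10 and 4.63e-10. Tpi1 (chr6:124810586-124814296) averaged 1204 ± 102 FPKM in NP-D@M cells and 199 ± 12.9 FPKM in NP@M cells, and Eno1 (chr4:150236721-150248879) 1191 ± 102 FPKM in NP-D@M cells and 186 ± 8.13 FPKM in NP@M cells. The 4 genes were 1.68- to 2.01-fold higher in NP-D@M cells on the table-read scale. Quantile normalization gave them log2 changes of -0.085 for Aldoa (not called), -0.37 for Tpi1, -0.48 for Pgk1 and -0.29 for Eno1. Their ranks within a library moved little or down. Aldoa ranked 142 to 159 with D and 140 to 153 without it, and Tpi1 127 to 141 with D and 92 to 107 without it. Pgk1 ranked 47 to 62 with D and 31 to 38 without it, and Eno1 124 to 146 with D and 101 to 115 without it.

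With Gapdh left out, some but not all neighbours in this middle stretch kept their proportions. Pgk1 stood at 2.16 ± 0.171 times the FPKM of Tpi1 in NP-D@M cells and 2.18 ± 0.10 times in NP@M cells, and Eno1 at 0.461 ± 0.0586 times that of Pgk1 in NP-D@M cells and 0.432 ± 0.0386 times in NP@M cells. Both pairs of groups overlapped. Tpi1 relative to Aldoa was lower with D, at 1.16 ± 0.0411 in NP-D@M cells and 1.37 ± 0.0740 in NP@M cells, with no overlap.

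Pkm (ENSMUSG00000032294, chr9:59656368-59679375, plus strand) had the highest log2 change of the 10 genes as deposited and on the table-read scale. It had 2828, 2832 and 3017 FPKM in NP-D@M cells, against 286, 262 and 274 FPKM in NP@M cells. The log2 change was 3.39 ± 0.0888 (limma adjusted p = 5.58e-11), 1.56 on the table-read scale and 0.47 after quantile normalization. As deposited, 96.8% of the tested genes had a lower one.

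Ldha (ENSMUSG00000063229, chr7:46841475-46855627, plus strand) closes the pathway and changed least of the called genes in FPKM. It had 645, 599 and 698 FPKM in NP-D@M cells, against 354, 351 and 354 FPKM in NP@M cells. As deposited every NP-D@M library was higher, with a log2 change of 0.87 ± 0.0856 (limma adjusted p = 1.44e-06). On the table-read scale the values were 363, 339 and 384 in NP-D@M cells, against 708, 689 and 711 in NP@M cells, so that every NP-D@M library was lower, with a log2 change of -0.96 (adjusted p = 1.39e-07). Quantile normalization gave -1.89. Its rank within the library was 198 to 211 with D and 45 to 54 without it.

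The ratio of Ldha to Pkm, the step to lactate over the step to pyruvate, is free of the library size. It was 0.236 ± 0.00197 in NP-D@MP cells, 0.224 ± 0.0107 in NP-D@M cells, 1.29 ± 0.0513 in NP@M cells and 1.27 ± 0.0602 in PBS cells. The D treatments did not overlap with NP@M or PBS. Pkm relative to Eno1 was higher with D, at 2.55 ± 0.0726 in NP-D@MP cells, 2.44 ± 0.205 in NP-D@M cells, 1.47 ± 0.0581 in NP@M cells and 1.52 ± 0.0450 in PBS cells. Ldha relative to Slc2a1 was 428 ± 53.9 in NP-D@MP cells, 268 ± 41.1 in NP-D@M cells, 17.6 ± 1.18 in NP@M cells and 17.2 ± 0.459 in PBS cells. Ldha thus stood lower against Pkm and higher against Slc2a1 in both D treatments.

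**Figure D2:**
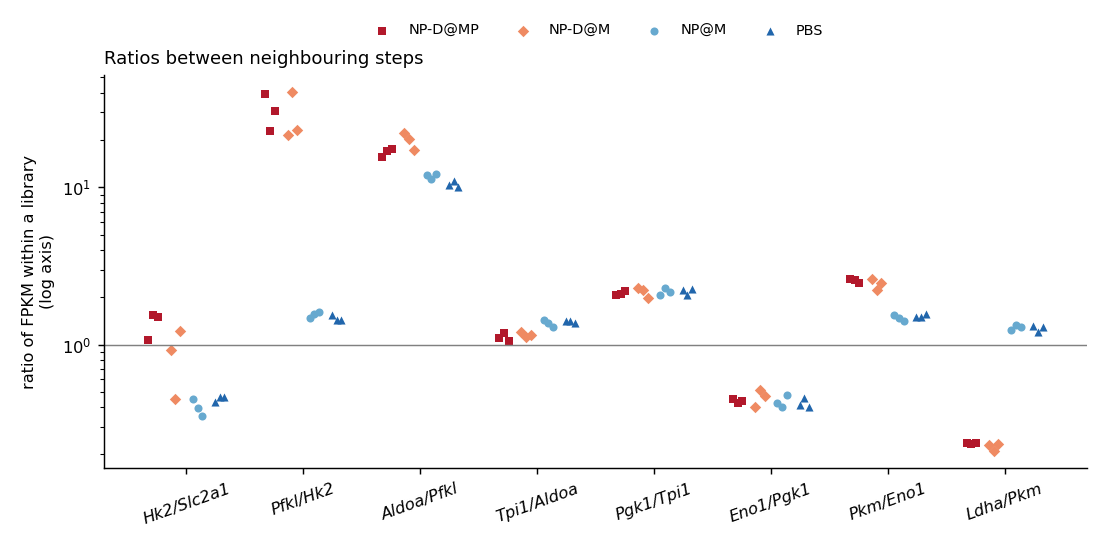
FPKM of each gene over that of the preceding gene of the pathway in the same library, on a log axis, with Gapdh left out; each symbol is a library. Ldha/Pkm lies at 0.212 to 0.238 with D (NP-D@MP and NP-D@M) and at 1.20 to 1.34 without it (NP@M and PBS), Pfkl/Hk2 is higher with D, and Pgk1/Tpi1 and Eno1/Pgk1 overlap between all treatments.

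**Figure D3:**
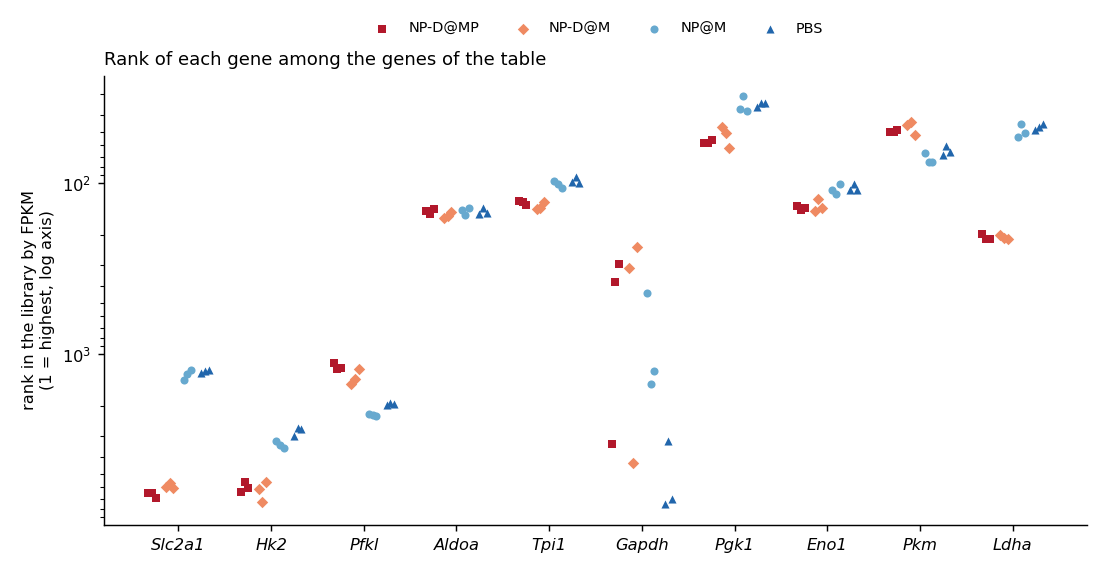
Rank of each gene among the genes of the table by FPKM in each library, with 1 as the highest, on a log axis. Slc2a1, Hk2, Tpi1, Pgk1, Eno1 and Ldha rank worse in NP-D@MP and NP-D@M libraries than in NP@M and PBS libraries. Pfkl and Pkm rank better there, while the ranks of Aldoa and Gapdh overlap.

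Gapdh (ENSMUSG00000057666, chr6:125161715-125166467, minus strand), often used as a reference gene, was the least reproducible of the 10. It had 10.4, 347 and 483 FPKM in NP-D@MP cells, 395, 5.24 and 609 FPKM in NP-D@M cells, 55.6, 18.3 and 21 FPKM in NP@M cells, and 2.20, 8.68 and 2.67 FPKM in PBS cells. N8 and N10 were far below the other libraries of their treatments. Between NP-D@M and NP@M the log2 change was 1.99 ± 1.69 (limma adjusted p = 0.274), and without N8 it was 4.09 (adjusted p = 0.0122).

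Gapdh has many processed copies in the mouse genome, and reads from a shared stretch can be split between them. Of the 50-base words of Gapdh transcripts, 25.1% occurred in transcripts of other genes, and 69 of those genes had a row in the table. The word below, of Gapdh-201 (chromosome 6, bases 980 to 1029 of the GENCODE M21 transcript, GRCm38.p6), is shown as an example of what cannot be assigned. It occurred in 69 other genes, of which only 47 had a row in the table, so not all of the rows pooled below hold it.
Gapdh-201: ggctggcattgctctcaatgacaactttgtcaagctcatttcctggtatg
The row of Gapdh held 0.260 to 25.2% of the reads of Gapdh and the 69 rows together. Pooled, these rows held 0.422 to 0.548% of the reads in the table in NP-D@MP cells, 0.470 to 0.563% in NP-D@M cells, 0.215 to 0.271% in NP@M cells and 0.213 to 0.260% in PBS cells. The treatments with D did not overlap with those without it. A fit of the pooled reads at the length of Gapdh, chosen after seeing the data, gave a log2 change of 2.98 for NP-D@M against NP@M (limma adjusted p = 1.95e-09) and 2.96 for NP-D@MP against PBS (adjusted p = 2.02e-09).

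**Figure D4:**
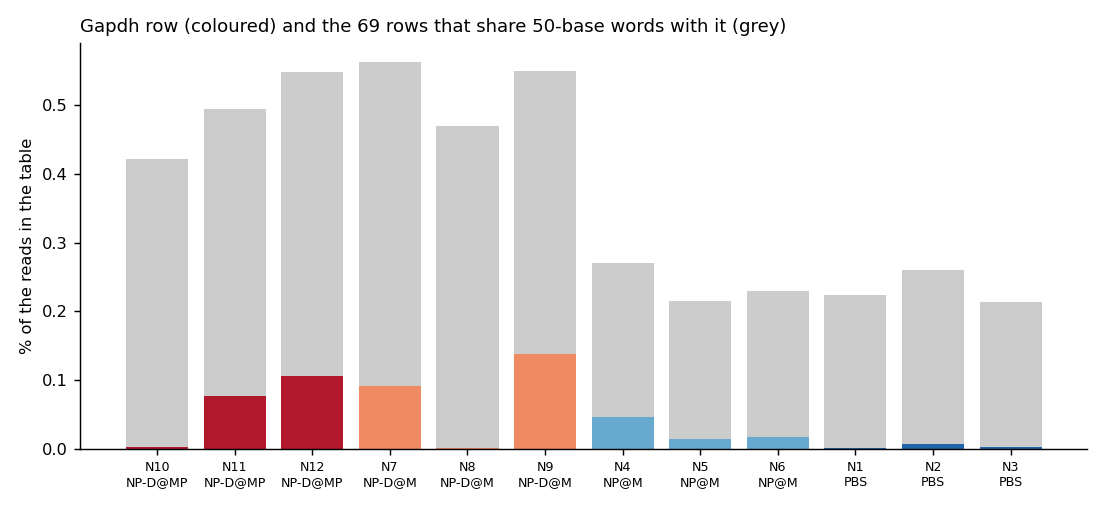
Reads in the Gapdh row (coloured) and in the 69 rows whose transcripts share 50-base words with it (grey), stacked, as a percent of the reads in the table of each library. The coloured share varies widely among libraries of a treatment, while the stacked total is 0.422 to 0.563% with D (NP-D@MP and NP-D@M) and 0.213 to 0.271% without it (NP@M and PBS).

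Other genes of the list shared sequence as well. Pgk1 shared 53.9% of its words, mostly with the retrogene Pgk1-rs7, but its row held 99.7 to 99.8% of the reads of the rows it shared with. Pkm held 97.2 to 99.0% of such reads. Eno1 held 54.1 to 58.6%, with part of the rest in its copy Eno1b. How far the levels of these 2 enolase genes depended on the assignment of reads was not tested. Eno1b itself averaged 1302 ± 88.6 FPKM in NP-D@M cells and 190 ± 14.1 FPKM in NP@M cells, a rise that was no longer called after quantile normalization (log2 change -0.19, limma adjusted p = 0.0616). Slc2a1, Hk2, Pfkl, Aldoa, Tpi1 and Ldha shared at most 9.26% of their words. By reads, the Ldha row held 6.60 to 13.1% of those in it and its 196 sharing rows. The Pfkl row held 19.2 to 38.9% with its 14 sharing rows, and the Aldoa and Tpi1 rows held 98.1% or more. How many of these reads came from shared words was not tested. Slc2a1, Hk2, Aldoa, Tpi1 and Gapdh overlap a gene on the opposite strand, and the strand setting of the counting is not given in these sources.

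The particle with both D and P in its name was set against buffer, which shares no library with the comparison above. Slc2a1 fell 12.4-fold and Hk2 4.12-fold in NP-D@MP cells. Pfkl rose 4.94-fold, Aldoa 7.87-fold, Tpi1 6.29-fold, Pgk1 6.13-fold, Eno1 6.35-fold and Pkm 10.7-fold in FPKM, although quantile normalization turned Tpi1, Pgk1 and Eno1 to lower values and left Aldoa without a change that passed the test. Ldha rose 1.99-fold in FPKM and fell 1.86-fold on the table-read scale. Of the 10 genes 8 were called higher and 2 lower, where 43.2% of all genes were called higher and 47.3% lower, 90.5% in all. On the table-read scale 6 were higher and 3 lower (17.5% and 70.7% of all genes), and after quantile normalization 3 were higher and 6 lower (38% and 42.3% of all genes).

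Slc2a1 had 1.87, 1.92 and 1.52 FPKM in NP-D@MP cells, against 21.6, 22.5 and 21.5 FPKM in PBS cells (log2 change -3.05 ± 0.0935, limma adjusted p = 1.08e-10). Hk2 had 1.99, 2.94 and 2.28 FPKM in NP-D@MP cells, against 9.37, 10.4 and 9.93 FPKM in PBS cells (log2 change -1.69 ± 0.175, limma adjusted p = 2.33e-06). Neither gene's groups overlapped, and both directions held on the table-read scale and after quantile normalization. Pkm had 3327, 3086 and 3107 FPKM in NP-D@MP cells, against 291, 326 and 276 FPKM in PBS cells (log2 change 3.41 ± 0.0888, limma adjusted p = 4.81e-11). Ldha had 792, 723 and 736 FPKM in NP-D@MP cells, against 380, 391 and 359 FPKM in PBS cells (log2 change 0.99 ± 0.0856, limma adjusted p = 4.64e-07, and -0.89 on the table-read scale). The call of Gapdh (log2 change 4.68 ± 1.69, limma adjusted p = 0.0205) was lost when N1, N3, N11 or N12 was left out (adjusted p from 0.0551 to 0.0805) and on the table-read scale (adjusted p = 0.102).

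**Figure D5:**
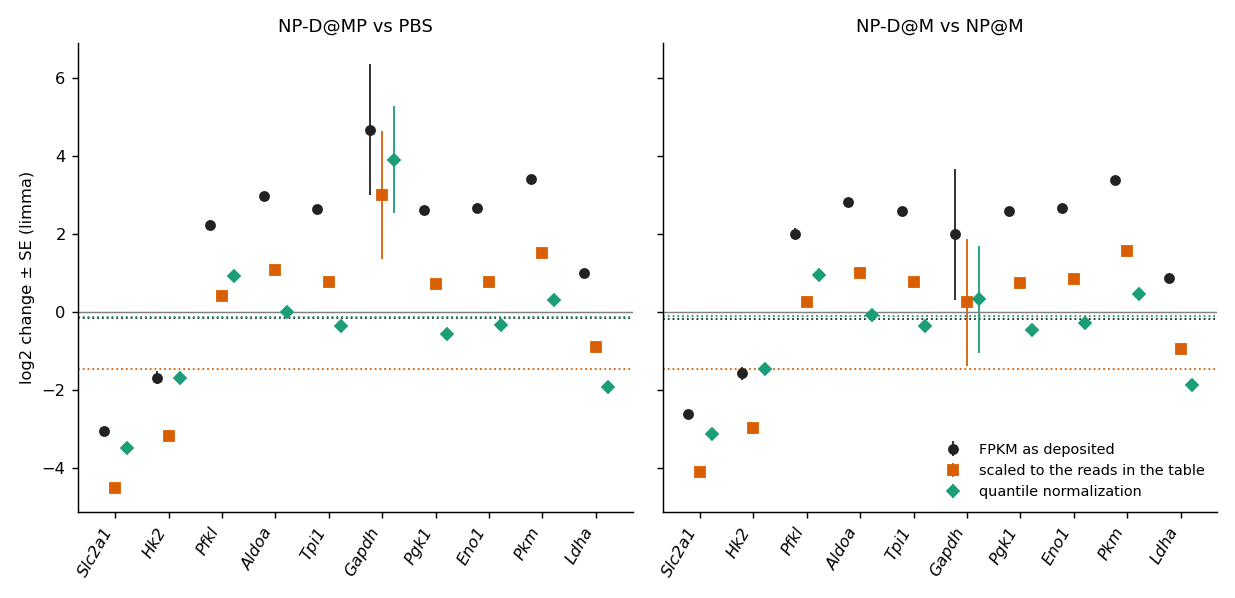
Log2 change ± SE (limma, n = 3 libraries per group) of each gene for NP-D@MP against PBS (left) and NP-D@M against NP@M (right) on 3 scales (orange, table-read); dotted lines are the median of all 10101 tested genes on each scale. Slc2a1 and Hk2 are below 0 and Pkm above 0 on all 3 scales, while Ldha is above 0 only as deposited, and Tpi1, Pgk1 and Eno1 are below 0 only after quantile normalization.

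The component labelled P was addressed by setting NP-D@MP against NP-D@M. None of the 10 genes was called, where 0.0495% of all genes were (5 of 10101; 1713 genes and 4 of the 10 had an unadjusted limma p under 0.05, and voom on the recovered reads called 0 genes). Slc2a1 was closest to a call, at 1.87, 1.92 and 1.52 FPKM in NP-D@MP cells, against 2.24, 2.71 and 2.36 FPKM in NP-D@M cells. These groups did not overlap, and the log2 change was -0.31 with a 95% interval of -0.52 to -0.11 (limma adjusted p = 0.205). Pfkl had 78.3, 67.1 and 70.1 FPKM in NP-D@MP cells, against 44.5, 49.1 and 66.7 FPKM in NP-D@M cells, with a log2 change of 0.44 and an interval of 0.15 to 0.73 (adjusted p = 0.205). Library N9 lay just under the NP-D@MP range of Pfkl, and without N9 the log2 change of Pfkl was 0.61 (adjusted p = 0.0053) and 1259 genes were called.

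For the other genes but Gapdh the log2 changes between NP-D@MP and NP-D@M lay between 0.07 (Eno1) and 0.21 (Ldha), and the widest 95% interval, that of Hk2, ran from -0.21 to 0.56. For Gapdh the interval ran from -3.59 to 3.82, too wide to tell a rise from a fall. In FPKM 4 of the 10 genes (Pfkl, Pgk1, Pkm and Ldha) lay higher in all NP-D@MP libraries and Slc2a1 lower, where 9.57% of all genes lay higher and 4.6% lower without overlap. This held for Ldha and Slc2a1 alone on the table-read scale, where 5.92% of all genes lay higher and 6.59% lower.

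The coated particle without D was likewise set against buffer. None of the 10 genes was called, where 0.0099% of all genes were (1 of 10101; 1092 genes and 0 of the 10 had an unadjusted limma p under 0.05, and voom called 0 genes). Slc2a1 averaged 20.1 ± 1.31 FPKM in NP@M cells and 21.9 ± 0.547 FPKM in PBS cells, Hk2 7.94 ± 0.444 FPKM in NP@M cells and 9.90 ± 0.508 FPKM in PBS cells, and Pfkl 12.3 ± 0.244 FPKM in NP@M cells and 14.5 ± 0.394 FPKM in PBS cells. Apart from Gapdh, all log2 changes lay between -0.29 (Hk2) and -0.06 (Aldoa), and the smallest adjusted p was 0.525, for Pfkl. Slc2a1, Hk2, Pfkl and Ldha lay lower in all NP@M libraries, where 16% of all genes did, and Gapdh lay higher, where 12.4% did. The interval of the log2 change of Hk2, the widest but that of Gapdh, ran from -0.67 to 0.10.

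The rest of glucose metabolism was read from lists of other genes for NP-D@M against NP@M. Of 10 other glycolytic isoenzymes and enzymes tested, 9 were called higher and none lower as deposited, where 41.8% of all genes were higher and 47.7% lower. There were 5 higher and 3 lower on the table-read scale (17.5% and 70.5% of all genes), and 7 higher and 1 lower after quantile normalization (37.7% and 41.8% of all genes). Gpi1, which converts glucose phosphate to fructose phosphate, averaged 408 ± 38.3 FPKM in NP-D@M cells and 60.8 ± 0.383 FPKM in NP@M cells (log2 change 2.72), and Pgam1, the mutase between Pgk1 and Eno1, 953 ± 84.7 FPKM in NP-D@M cells and 160 ± 7.24 FPKM in NP@M cells (log2 change 2.57, but -0.33 after quantile normalization). Adpgk was the gene not called as deposited (log2 change 0.21, limma adjusted p = 0.0942). Gpi1 and Pgam1 thus had log2 changes close to those of Tpi1 and Pgk1 as deposited.

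Among 5 transport genes, 2 were called higher and 3 lower as deposited, near the 41.8% and 47.7% of all genes, and 1 higher and 4 lower on the table-read scale, near the 17.5% and 70.5% of all genes. Bsg, the chaperone of the lactate carriers, averaged 1640 ± 213 FPKM in NP-D@M cells and 117 ± 9.55 FPKM in NP@M cells (log2 change 3.79, and 1.96 on the table-read scale). The lactate carrier Slc16a1 averaged 20.5 ± 3.38 FPKM in NP-D@M cells and 34.0 ± 2.28 FPKM in NP@M cells (log2 change -0.71), and Txnip, which restrains glucose uptake, 32.4 ± 3.99 FPKM in NP-D@M cells and 50.2 ± 3.30 FPKM in NP@M cells (log2 change -0.62). Slc2a8 was higher as deposited (log2 change 0.89) but lower on the table-read scale (-0.51). The carriers Slc2a1 and Slc16a1 thus fell on all 3 scales, while Bsg rose on all 3.

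Pyruvate entry into mitochondria had 7 of 12 genes higher and 4 lower, and the branches into pentose phosphate, serine and hexosamine synthesis 12 of 17 higher and 4 lower, where 41.8% of all genes were higher and 47.7% lower. On the table-read scale these counts were 3 higher and 6 lower for pyruvate entry, and 4 higher and 10 lower for the branches, where 17.5% of all genes were higher and 70.5% lower. Taldo1, a transaldolase of the pentose phosphate pathway, had the largest change of the branches, at 746 ± 57.3 FPKM in NP-D@M cells and 44.1 ± 5.11 FPKM in NP@M cells (log2 change 4.05, and 2.24 on the table-read scale). Phgdh, the first enzyme of serine synthesis, averaged 1782 ± 43.2 FPKM in NP-D@M cells and 208 ± 20.2 FPKM in NP@M cells (log2 change 3.10), a rise that was no longer called after quantile normalization (log2 change 0.098, limma adjusted p = 0.342). Gfpt1, the first enzyme of hexosamine synthesis, averaged 5.53 ± 1.25 FPKM in NP-D@M cells and 8.04 ± 0.848 FPKM in NP@M cells. Tigar, which lowers the activator of phosphofructokinase, was the only tested gene of its list and was lower (log2 change -1.32). Both gluconeogenic genes tested, Pck2 and G6pc3, were higher as deposited, and G6pc3 alone on the table-read scale.

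Among 18 HIF-1 subunits, regulators and other hypoxia targets, 7 were called higher and 10 lower as deposited, and 2 higher and 14 lower on the table-read scale. These shares were near those of all genes, 41.8% higher and 47.7% lower as deposited and 17.5% higher and 70.5% lower on the table-read scale. On both scales the counts thus show nothing particular to the list. After quantile normalization 3 were called higher and 10 lower, where 37.7% of all genes were higher and 41.8% lower. The median log2 change of the list was -0.83 as deposited, -1.97 on the table-read scale and -0.40 after quantile normalization. That of all genes was -0.19, -1.46 and -0.10, and the difference was not tested. Hif1a, the oxygen-regulated subunit, averaged 4.17 ± 0.771 FPKM in NP-D@M cells and 16.6 ± 2.27 FPKM in NP@M cells (log2 change -1.77, limma adjusted p = 5.37e-07). Kdm3a, a hypoxia-induced histone demethylase, averaged 1.21 ± 0.348 FPKM in NP-D@M cells and 8.52 ± 0.543 FPKM in NP@M cells. Car9, a carbonic anhydrase, went the other way, at 28.2 ± 8.16 FPKM in NP-D@M cells and 4.51 ± 0.727 FPKM in NP@M cells, and stayed higher on the table-read scale (log2 change 0.72). Slc2a1 and Hk2 stood with the falling members of this list and Pgk1 and Pkm with the rising ones as deposited. Between NP-D@MP and NP-D@M, and between NP@M and PBS, limma called 0 genes of any of these lists.

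Likeness was measured by the root-mean-square difference of log2 profiles over the 12 libraries, each profile less its own mean. The genes most like each of the 10 were sought outside the list, among tested genes with a mean of at least 5 FPKM. For Slc2a1 they were Polr2a at 0.12, Nup50 at 0.15 and Hjurp at 0.16, and for Ldha Rbx1 at 0.06, Actb at 0.07 and Derl1 at 0.07. Pkm was nearest to the ATP synthase gene Atp5b at 0.05, Aldoa to Grk2 at 0.05, Pgk1 to Psmd2 at 0.06, Eno1 to Ppp5c at 0.06 and Pfkl to Rgl2 at 0.09. Hk2 was nearest to Aco1 at 0.15, while no gene of this search came closer to Gapdh than 1.65. Among the 10 genes the closest pair was Tpi1 and Pgk1 at 0.06, whereas Slc2a1 and Hk2 differed by 0.67 from each other and Ldha by 1.24 from Pkm.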

How the data were processed

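CT26 cells were profiled by RNA sequencing in 12 libraries, 3 per treatment, grouped by the sample titles; libraries were made from total RNA with an Illumina TruSeq kit, per the labels' protocols. The authors deposited 1 table of FPKM values for 12584 genes. The submitters' processing notes name Bowtie 0.12.2 and mm8, but 12580 identifiers were those of GENCODE M21 on GRCm38, and the gene counter is not given in these sources. FPKM times gene length was a whole multiple of 1 step per library for 100% of values (relative tolerance 1e-06), which gave whole reads and each library's divisor. The table-read scale divides by the sum of these reads instead.

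Log2(FPKM + 1) values of genes with at least 1 FPKM in at least 3 libraries (10101 genes) were fitted with limma 3.58.1 in R 4.3.3, all 12 libraries together, with calls where the p adjusted by Benjamini-Hochberg was under 0.05. Log2 changes on this scale understate those of low genes, and folds are ratios of mean FPKM. Alternatives were the table-read scale, median ratios, quantile normalization, leaving out each library, voom on the recovered reads, a fit of only the 6 libraries compared, a pseudocount of 0.1, and either no filter or a mean FPKM of 5 or more; pooling of Gapdh with its sharing rows was added after seeing the data. The test was checked on simulated data in which few genes changed and each library was divided by its summed reads. That check cannot speak to the choice of scale. The 10 genes, the other lists and the tests were chosen with earlier results of these data known. Named genes of the other lists are drawn from up to 3 called genes per direction with the largest change, no overlap and at least 5 FPKM in the higher group; Hk1, Adpgk and Tigar were named after their values were seen. For 1 of the 10 genes the gene with the most similar profile is not reported here. Promoters come from RefSeq.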

Additional observations from a re-analysis of the deposited data

How the results depend on the processing

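Each comparison had 150 pairs of gene and alternative. The side of the threshold held, with no turn of direction in a called gene, for 141 pairs with NP-D@M against NP@M and 139 with NP-D@MP against PBS. The same was so for 149 pairs with NP-D@MP against NP-D@M and 150 with NP@M against PBS. A turn of direction in a gene called by neither fit was not counted. Such turns occurred, as for Pgk1 between NP-D@MP and NP-D@M (log2 change 0.13 as reported, lowest -0.071) and Aldoa between NP@M and PBS (-0.065 as reported, highest 0.0096). Ldha reversed on the table-read scale, at -0.96 in NP-D@M against NP@M and -0.89 in NP-D@MP against PBS. With quantile normalization the log2 change reversed in NP-D@M against NP@M for Aldoa (-0.085, not called), Tpi1 (-0.37), Pgk1 (-0.48), Eno1 (-0.29) and Ldha (-1.89), and in NP-D@MP against PBS for Tpi1 (-0.37), Pgk1 (-0.57), Eno1 (-0.34) and Ldha (-1.94). The cause was not tested. Slc2a1 and Hk2 were called lower and Pkm higher in both comparisons under every alternative.

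The count of all genes called with a mean of at least 5 FPKM, where 4944 genes were tested, was 4574 in NP-D@M against NP@M and 4584 in NP-D@MP against PBS. For NP-D@MP against NP-D@M the count, 5 by the reported fit, was 2 on the table-read scale, 21 with no filter, 1 with a mean of at least 5 FPKM, 26 with a pseudocount of 0.1, 0 with only the 6 libraries compared and 0 with voom. Leaving out a library gave 4 to 1259 genes there, with 14 without N7 and 1259 without N9, and 0 to 1 of the 10 genes. For NP@M against PBS, where 1 gene was called, it was 7 with quantile normalization, 4 with no filter, 0 with a mean of at least 5 FPKM, 2 with a pseudocount of 0.1, 2 with only the 6 libraries compared and 0 with voom, and leaving out a library gave 1 to 2. No paired analysis was possible because the library numbers run from N1 to N12 and no number is shared between treatments. Slc2a1 and Hk2 rest on 38 to 142 reads per library with D, which limits their precision there.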
